A study of Mus musculus with 7 samples.

Results

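The genes described here are 7 transcription factors of the hepatocyte nuclear factor and Onecut network, Hnf4a, Hnf4g, Foxa1, Foxa2, Foxa3, Onecut1 and Onecut2, measured in mouse pancreatic islets. They were listed by name, with earlier results of these data known, and each was represented by its brightest probe set with a single gene symbol in the platform annotation. All 7 had such a probe set, among 14807 named genes in all. The study compared islets of b-FoxO triple KO mice (3 samples, KO 5 to 7), which lack FoxO1, FoxO3 and FoxO4 in beta cells and whose titles read R+KO, with islets of WT littermates (4 samples, WT 1 to 4). Both groups shared the mixed background 129 x FVBn x C57BL/6, and littermates were matched by age and sex. The labels do not explain the R+ in the KO titles, a mark the WT titles lack, so what else it sets apart between the groups is unknown. The age itself, the promoter driving the deletion and the number of animals behind each sample are not stated in the labels, so the tests cover the spread among these 7 samples and no more. The deletion is described as one of beta cells, and whether the other cells of an islet keep the FoxO genes was not measured.

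HNF4 proteins are nuclear receptors, FOXA proteins are forkhead factors that open chromatin, and ONECUT proteins carry a cut domain and a homeodomain. Together with HNF1 proteins they regulate one another in liver, gut and pancreas, and several are required for the pancreas to form. Heterozygous loss of human HNF4A causes a form of MODY, maturity-onset diabetes of the young, and the series title names a MODY-like diabetes. Hnf4a is transcribed from a distal promoter that is the main one in beta cells and from a proximal one that is the main one in liver. FOXO and FOXA proteins are both forkhead factors and recognise nearly the same core sequence.

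Of the 7 genes, 5 had a transcription start in the RefSeq promoter table for GRCm38.p6. The windows below hold the 250 bases before the start, 5′ to 3′. Shown are both starts of Hnf4a, the member tied to MODY, and the start of Foxa1, which differ in their exact matches to network motifs. Capitals mark matches on either strand to the forkhead core TGTTTAC, the HNF1 core GTTAAT, the HNF4 core CAAAGTCC or the ONECUT core ATCAAT. No match of one motif overlapped one of another in these windows.
Hnf4a distal start, chr2:163506607-163506856, plus strand: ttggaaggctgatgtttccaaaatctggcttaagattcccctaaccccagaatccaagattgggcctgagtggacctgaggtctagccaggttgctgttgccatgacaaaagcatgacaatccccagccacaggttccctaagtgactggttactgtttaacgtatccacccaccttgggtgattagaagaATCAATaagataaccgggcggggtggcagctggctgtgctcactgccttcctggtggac
Hnf4a proximal start, chr2:163546905-163547154, plus strand: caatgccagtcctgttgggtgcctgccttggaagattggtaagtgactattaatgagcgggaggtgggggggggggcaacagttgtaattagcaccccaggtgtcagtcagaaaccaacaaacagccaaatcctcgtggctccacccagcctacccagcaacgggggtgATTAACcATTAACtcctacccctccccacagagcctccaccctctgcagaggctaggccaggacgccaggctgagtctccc
Foxa1 start, chr12:57546112-57546361, minus strand: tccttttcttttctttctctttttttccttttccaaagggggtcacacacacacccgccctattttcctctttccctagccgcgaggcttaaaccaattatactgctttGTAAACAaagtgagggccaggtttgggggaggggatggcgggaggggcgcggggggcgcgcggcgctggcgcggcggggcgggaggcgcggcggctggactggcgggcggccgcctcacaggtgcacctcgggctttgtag
The 2 starts of Hnf4a lie 40298 bases apart. The distal window held 1 ONECUT match, 59 to 54 bases before the start, and the proximal window held 2 HNF1 matches, 81 to 76 and 74 to 69 bases before it. The Foxa1 window held 1 forkhead match, 141 to 135 bases before the start. Among the 3 starts of Foxa2, 1 held an ONECUT match, 1 an HNF1 match and 1 no match to these letters, and the windows of Foxa3 and Onecut1 held none. Over all 32851 windows of the same length, 3.17% held the forkhead core, 6.43% the HNF1 core, 1.20% the HNF4 core and 6.72% the ONECUT core. Such matches describe the sequence and are no evidence of binding. Only exact matches were searched, so a window can hold near matches that are not marked. The distal Hnf4a window holds gttact and tttaac, each 1 letter from the HNF1 core or its reverse complement. The absence of an exact HNF1 match there therefore does not show that it lacks an HNF1 site. The array has 1 named probe set for Hnf4a, so transcripts of its 2 starts were not measured apart.

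Expression was given as log2 values from RMA, which removes background signal, puts the arrays on a common scale and combines the probes of a set into 1 value. All differences are KO minus WT on that scale, and levels are not compared between genes, whose probe sets respond differently. Array medians lay between 7.11 and 7.29, and correlations between samples over all named genes between 0.967 and 0.995. Upper quartiles were 8.63 in WT 3 and 8.81 in WT 4, against 8.88 to 8.95 in the others, so the arrays were not evenly scaled among brighter probe sets. WT 3 and WT 4 scored 43.2 and 30.3 on the leading principal component, far from the remaining samples (-29.0 to -3.40), so differences are also given without them. The deleted genes differed by -0.47 (Foxo4), -0.16 (Foxo3) and -0.26 (Foxo1), with limma adjusted p values of 0.362, 0.486 and 0.490. Without WT 3 and WT 4 they differed by -0.55, -0.12 and -0.50, in the same order, with adjusted p values of 0.951, 0.961 and 0.951. The unadjusted limma p values there were 0.0203, 0.311 and 0.0112, where 4.73% of all genes were under 0.05. With all samples, every KO sample lay below every WT sample for Foxo4 and Foxo3 but not for Foxo1. Groups did not overlap, in either direction, for 10.9% of all genes. The islet label was met by the hormone genes: Ins2 averaged 13.20 in KO and 12.99 in WT islets and Gcg 13.60 in KO and 13.57 in WT islets, near the top of the range of all probe sets, which ended at 14.3. Among all named genes, 1 passed limma's test at an adjusted p under 0.05, 0.00675% of those tested.

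None of the 7 network genes passed the test between KO and WT islets. All 7 differences were positive, from 0.04 for Foxa2 to 0.37 for Foxa3, with a median of 0.18, against a median of 0.08 over all genes, of which 68.4% had a positive difference. At an unadjusted p under 0.05 there were 0 of 7, where 13.7% of all genes were below that value, and the groups were free of overlap for 0 of 7, where this held for 10.9% of all genes. Without WT 3 and WT 4 the differences of 5 of 7 were positive and the median was 0.10, and 58.5% of all genes were positive. After quantile normalization 6 of 7 were positive, with a median of 0.12, and after centring every sample at its median all 7 were, with a median of 0.16. Of all genes, 60.8% and 63% were positive in these settings, in the same order. The number of arrays limits the precision: the 95% confidence intervals reached down to a fold of 0.763 and up to one of 1.89, both for Hnf4a.

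**Figure D1:**
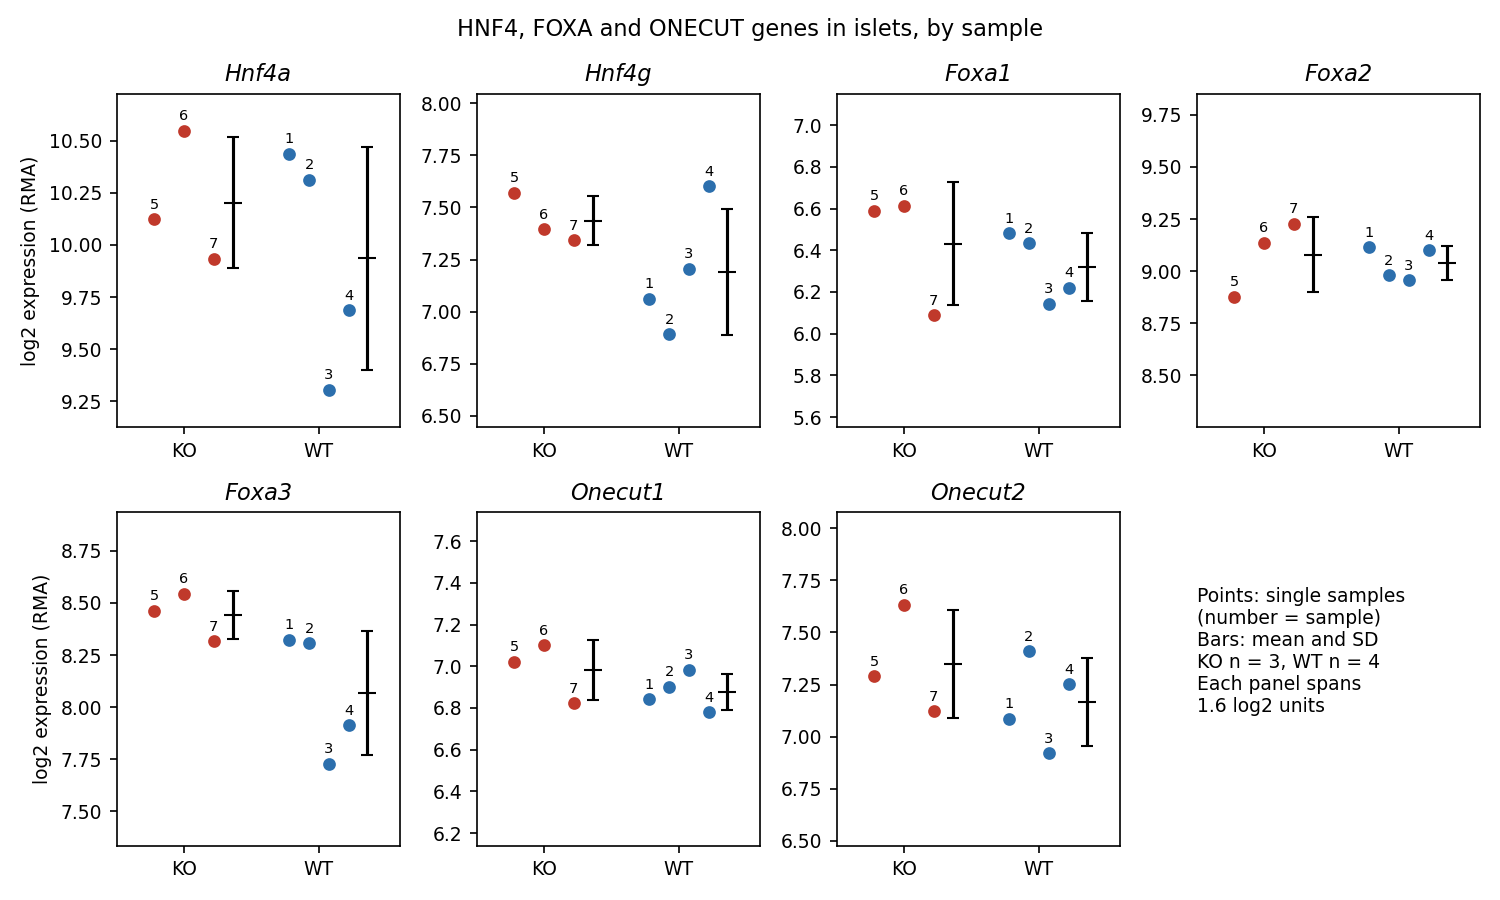
Log2 expression of the 7 network genes in each islet sample, KO left (red, n = 3) and WT right (blue, n = 4), with sample numbers beside the points and bars for mean and SD. KO and WT samples overlap in every panel, and WT 3 and WT 4 lie lowest for Hnf4a and Foxa3.

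Among the nuclear receptors, Hnf4a, the member mutated in MODY, showed the widest spread of the 7 genes, 1.24 log2 units over the samples. It was at 10.12, 10.55 and 9.93 in KO 5, KO 6 and KO 7, against 10.44, 10.31, 9.31 and 9.69 in WT 1 to 4. WT 3 and WT 4 were the lowest samples and KO 6 the highest, and the KO values lay within the upper part of the WT range or just above it. The means were 10.20 ± 0.31 (SD, n = 3) in KO and 9.94 ± 0.53 (SD, n = 4) in WT islets, a difference of 0.27 (SE 0.29, 95% interval -0.39 to 0.92, limma adjusted p = 0.707). Without WT 3 and WT 4 the difference was -0.17 (SE 0.18, adjusted p = 0.969), so its sign rested on those 2 samples. After quantile normalization of all samples it was 0.10 (SE 0.22, adjusted p = 0.882).

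Hnf4g, the paralogue of Hnf4a that is known from gut and pancreas and in mouse islets depends on HNF1, had a different order of samples. It was at 7.57, 7.40 and 7.34 in KO 5, KO 6 and KO 7, against 7.06, 6.89, 7.21 and 7.60 in WT 1 to 4. All KO samples were above WT 1, WT 2 and WT 3, and WT 4 was above all KO samples. The difference was 0.25 (SE 0.17, 95% interval -0.14 to 0.63, limma adjusted p = 0.512), with means of 7.44 ± 0.12 (SD, n = 3) in KO and 7.19 ± 0.30 (SD, n = 4) in WT islets. It was 0.38 without WT 4, 0.15 without WT 2 and 0.46 (SE 0.12, adjusted p = 0.951) without WT 3 and WT 4, which made it the largest of the 7 there, with an unadjusted p of 0.00691 where 4.73% of all genes were under 0.05. Under array weights it was 0.38 (adjusted p = 0.237), and no alternative took it past the threshold or turned its sign.

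Of the forkhead members, Foxa3, which is prominent in liver and like Hnf4g depends on HNF1 in mouse islets, had the largest difference. It was at 8.46, 8.54 and 8.32 in KO 5, KO 6 and KO 7, against 8.32, 8.31, 7.73 and 7.91 in WT 1 to 4. KO 5 and KO 6 lay above all WT samples, while KO 7 lay between WT 1 and WT 2, and WT 3 and WT 4 were well below the rest. The means of 8.44 ± 0.12 (SD, n = 3) in KO and 8.07 ± 0.30 (SD, n = 4) in WT islets differed by 0.37 (SE 0.16, 95% interval -0.005 to 0.75, limma adjusted p = 0.367), a fold of 1.29. Without WT 3 and WT 4 the difference was 0.13 (SE 0.12, adjusted p = 0.961).

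Foxa2, a factor of beta cell differentiation and insulin secretion, had the narrowest interval of the forkhead members. It was at 8.88, 9.14 and 9.23 in KO 5, KO 6 and KO 7, against 9.11, 8.98, 8.96 and 9.10 in WT 1 to 4. The highest and the lowest sample were both KO. The difference was 0.04 (SE 0.11, limma adjusted p = 0.899), and its interval of -0.22 to 0.30 corresponds to folds of 0.861 to 1.23. It was -0.09 after quantile normalization, -0.03 without KO 7 and 0.03 without WT 3 and WT 4.

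Foxa1, which shares much of its role in the pancreas with Foxa2, was at 6.59, 6.61 and 6.09 in KO 5, KO 6 and KO 7, against 6.48, 6.43, 6.14 and 6.22 in WT 1 to 4. KO 5 and KO 6 were the highest samples and KO 7 the lowest of all 7. The difference was 0.11 (SE 0.16, 95% interval -0.25 to 0.47, limma adjusted p = 0.786), and it was -0.03 without WT 3 and WT 4 and 0.28 without KO 7.

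Onecut1, also called HNF6, a factor of pancreatic duct and endocrine progenitor development, was at 7.02, 7.10 and 6.82 in KO 5, KO 6 and KO 7, against 6.84, 6.90, 6.98 and 6.78 in WT 1 to 4. KO 5 and KO 6 lay above the WT samples and KO 7 within them. The difference of 0.10 (SE 0.10, limma adjusted p = 0.680) had an interval of -0.14 to 0.34, and it was 0.04 without KO 6 and 0.11 without WT 3 and WT 4. A further Onecut1 probe set, which was dimmer, averaged 4.70 in KO and 4.63 in WT islets, a difference of 0.07.

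Onecut2, the paralogue of Onecut1, was at 7.29, 7.63 and 7.12 in KO 5, KO 6 and KO 7, against 7.09, 7.41, 6.92 and 7.25 in WT 1 to 4. KO 6 was the highest sample and WT 3 the lowest, with the others intermixed. The difference was 0.18 (SE 0.16, 95% interval -0.19 to 0.55, limma adjusted p = 0.626), and it was 0.04 without KO 6 and 0.10 without WT 3 and WT 4.

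**Figure D2:**
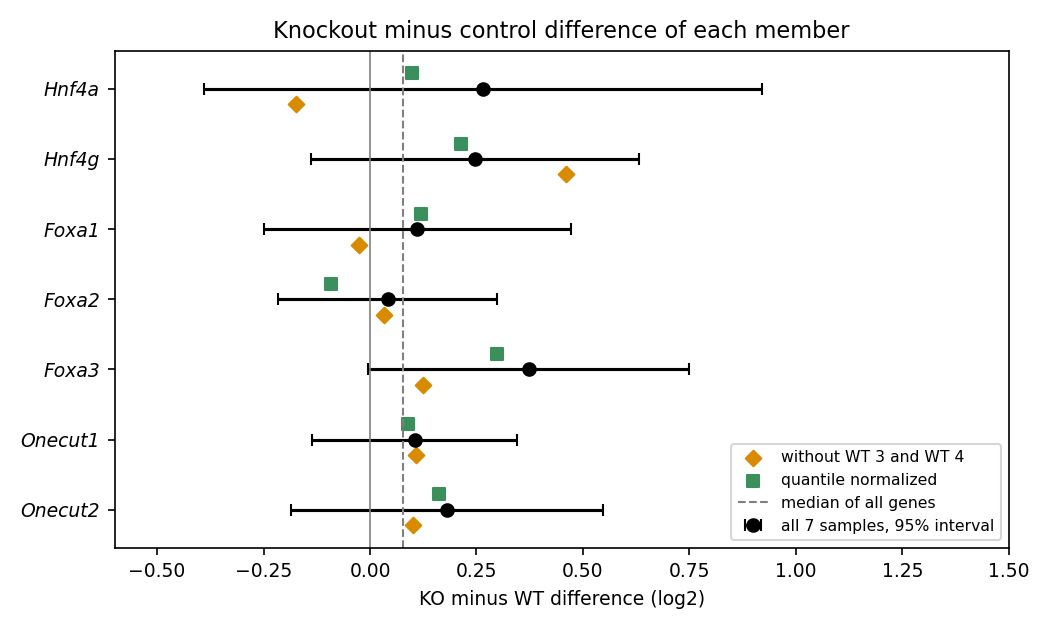
KO minus WT difference in log2 units for each network gene, with 95% confidence intervals from all 7 samples (circles), the value after quantile normalization (squares) and the value without WT 3 and WT 4 (diamonds). Every interval spans 0, the dashed line marks the median of all genes at 0.08, and Hnf4a and Foxa1 turn negative without WT 3 and WT 4.

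Whether members of a family differed in their response was tested on the gap between paralogues within each sample, with a two-sided exact permutation test over the 35 ways of dividing the samples into 3 and 4. The smallest p this allows is 0.0286, which for a single pair becomes 0.143 after adjustment over 5 pairs, so 1 pair alone could not pass. The intervals below come from an unmoderated t test of the gap and not from the permutation test. Differences of dim probe sets are compressed in RMA values, and the part of this in the gaps was not tested. Foxa1 minus Foxa3 had a difference of changes of -0.26 (95% interval -0.57 to 0.05, exact permutation p = 0.0857, adjusted p = 0.429 over 5 pairs), and Foxa2 minus Foxa3 one of -0.33 (-0.86 to 0.20, exact permutation p = 0.200, adjusted p = 0.5). For Hnf4a minus Hnf4g it was 0.02 (-1.20 to 1.24, exact permutation p = 1, adjusted p = 1). For Foxa1 minus Foxa2 it was 0.07 (-0.52 to 0.66, exact permutation p = 0.771, adjusted p = 0.964), and for Onecut1 minus Onecut2 it was -0.08 (-0.51 to 0.36, exact permutation p = 0.686, adjusted p = 0.964). The test therefore had little room to call a pair, and the wide interval for the HNF4 pair, whose members ordered the samples differently, does not show that they responded alike.

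The order of the samples for Hnf4a and Foxa3 ran beside that of the immediate early genes, which are switched on rapidly by stimulation or by handling of the tissue. The mean of 10 such genes was 10.27, 9.82 and 11.06 in KO 5, KO 6 and KO 7, against 10.67, 10.07, 11.52 and 11.50 in WT 1 to 4. The 3 samples highest for these genes, WT 3, WT 4 and KO 7, were the 3 lowest for Hnf4a, and KO 6, the lowest for them, was the highest for Hnf4a, Foxa1, Foxa3, Onecut1 and Onecut2. WT 3, WT 4 and KO 7 also scored highest on the leading principal component, which held 64.7% of the variance of all named genes. This order of samples is thus not particular to Hnf4a and Foxa3. Within the KO group, KO 7 was the lowest for all members but Foxa2. The part of this state in the differences was not tested.

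**Figure D3:**
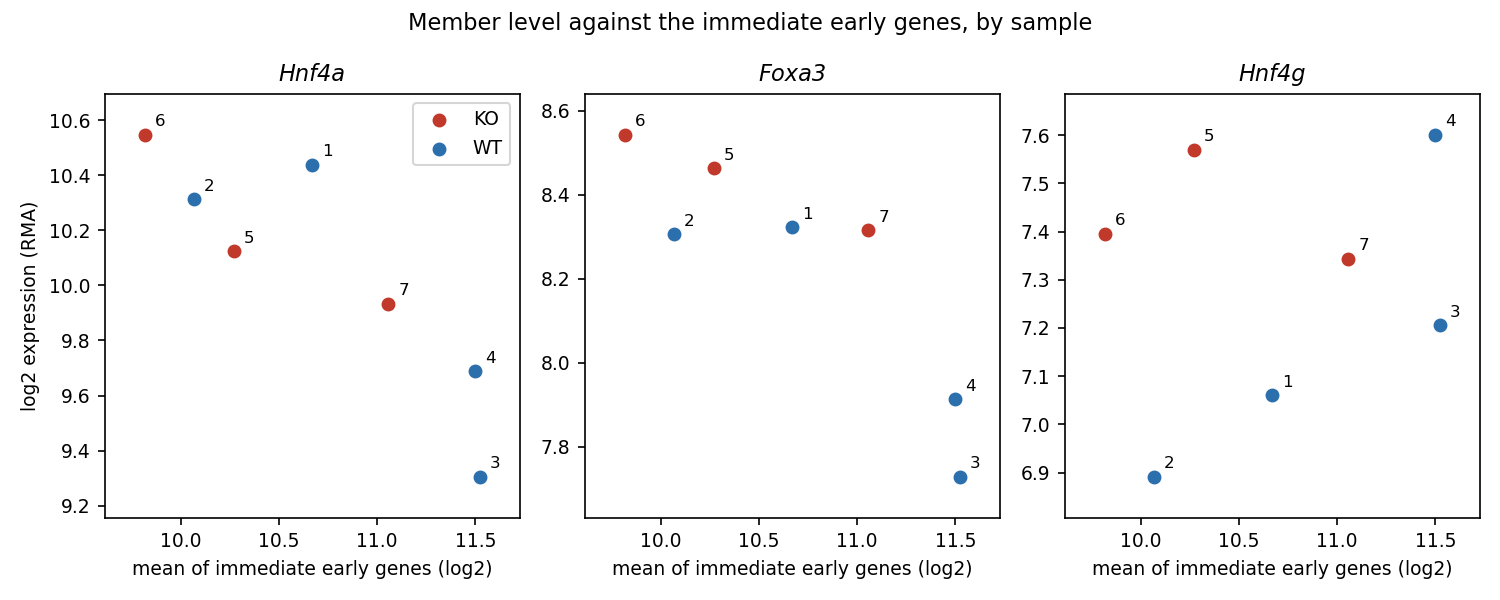
Log2 level of Hnf4a, Foxa3 and Hnf4g against the mean log2 level of 10 immediate early genes, 1 point per islet sample, KO in red and WT in blue, with sample numbers. WT 3 and WT 4 lie at means of 11.52 and 11.50 and are lowest for Hnf4a and Foxa3, whereas WT 4 is highest for Hnf4g at 7.60.

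Several of these factors are also made in duct, acinar and alpha cells, and in whole islets fewer cells of a type and less RNA per cell cannot be told apart. The 4 measured duct cell markers had mean levels of 5.91 to 6.39 in KO and 5.96 to 6.18 in WT samples, with the highest in KO 6, and Sox9, the brightest of them, differed by 0.18 (SE 0.19, limma adjusted p = 0.704), and by -0.01 without WT 3 and WT 4, where the duct median was -0.003 in place of 0.10. The 8 measured acinar cell markers had means of 8.66 to 9.34 in KO and 8.14 to 9.31 in WT samples, with the lowest in WT 4. The 3 measured alpha cell markers had means of 9.43 to 10.02 in KO and 9.13 to 9.64 in WT samples. The higher KO means came from Pou3f4, which differed by 1.20, against 0.08 for Irx2 and 0.02 for Gcg. Without WT 3 and WT 4 these were 0.97, -0.01 and -0.01, in the same order. Gcg spanned only 0.12 log2 units over all samples and lay near the top of the scale. Whether its probe set could still show a change was not tested. The 7 beta cell markers had means of 12.31 to 12.53 in KO and 12.23 to 12.42 in WT samples. Ranges also overlapped for the endothelial (9.03 to 9.12 in KO, 8.84 to 9.41 in WT), immune (6.96 to 7.38 in KO, 6.96 to 7.42 in WT) and stromal markers (7.57 to 7.84 in KO, 7.34 to 8.01 in WT). For the endothelial markers WT 3 alone made them overlap, as WT 1, WT 2 and WT 4 (9.41, 9.26 and 9.16) lay above all KO samples. Without WT 3 and WT 4 the endothelial median was -0.30. There 2 of 5 were lower in KO at an unadjusted limma p under 0.05, where 4.73% of all genes were under it. RMA values have no 0, so no marker can be called absent, and the part of cell composition in the members' values was not tested.

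Genes known as targets of HNF1 proteins, the partners of this network, had a positive difference in 9 of 9 measured cases and a median of 0.10, against 68.4% positive and a median of 0.08 over all genes. Of them 3 had an unadjusted p under 0.05 and were higher in KO islets, where this held for 11.6% of all genes, and 0 passed the adjusted threshold. Alb, serum albumin, was at 7.74, 7.48 and 6.85 in KO 5, KO 6 and KO 7, against 6.62, 6.81, 6.17 and 6.22 in WT 1 to 4. All KO samples lay above all WT samples, KO 7 by little. The difference was 0.90 (SE 0.24, limma adjusted p = 0.362), and 0.64 (SE 0.24, adjusted p = 0.951) without WT 3 and WT 4.

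Cltrn, collectrin, a beta cell membrane protein, was at 12.70, 12.37 and 12.14 in KO 5, KO 6 and KO 7, against 12.18, 12.09, 11.55 and 11.45 in WT 1 to 4. KO 7 fell below WT 1, so the groups overlapped. The difference was 0.59 (SE 0.22, limma adjusted p = 0.362), and 0.27 (SE 0.17) without WT 3 and WT 4. Pklr, the pyruvate kinase of liver and red cells, averaged 8.58 ± 0.08 (SD, n = 3) in KO and 8.32 ± 0.15 (SD, n = 4) in WT islets without overlap, a difference of 0.26 (SE 0.11, limma adjusted p = 0.364) and of 0.27 (SE 0.14) without WT 3 and WT 4. Slc2a2, the glucose transporter of beta cells, differed by 0.06 (SE 0.12, adjusted p = 0.857), and by -0.05 without WT 3 and WT 4. The list's positive differences numbered 7 of 9 after quantile normalization, 8 with each sample centred and 7 without WT 3 and WT 4, where 1 member, Alb, kept an unadjusted p under 0.05. Over all genes the positive share was 60.8% after quantile normalization, 63.0% with centring and 58.5% without WT 3 and WT 4, where 4.73% had an unadjusted p under 0.05.

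Of 11 measured targets of HNF4 proteins, 8 were positive in KO minus WT, with a median of 0.10 and 0 at an unadjusted p under 0.05. The shares over all genes were 68.4% positive and 13.7% under that p, with a median of 0.08. Mttp, which loads lipid onto apolipoprotein B, averaged 7.72 ± 0.07 (SD, n = 3) in KO and 7.33 ± 0.39 (SD, n = 4) in WT islets, a difference of 0.40 (SE 0.20, limma adjusted p = 0.386) that was 0.12 (SE 0.12) without WT 3 and WT 4. Ttr, transthyretin, differed by 0.22 (SE 0.12, adjusted p = 0.418), and Ppara, the nuclear receptor of fatty acid oxidation, by 0.19 (SE 0.12, adjusted p = 0.465). Both were smaller without WT 3 and WT 4, at 0.11 and 0.14. The counts of positive members were 8 of 11 after quantile normalization and without WT 3 and WT 4, and 7 of 11 with each sample centred. Over all genes the positive shares there were 60.8%, 58.5% and 63%, in the same order.

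Of 7 measured targets of FOXA proteins, 5 had positive differences, with a median of 0.05 and 2 higher at an unadjusted p under 0.05. Over all genes 68.4% were positive, the median was 0.08 and 11.6% were higher at that p. Pou3f4, a transcription factor of alpha cells, was at 8.03, 7.76 and 6.52 in KO 5, KO 6 and KO 7, against 6.94, 5.98, 6.23 and 5.79 in WT 1 to 4, so KO 7 lay below WT 1. It differed by 1.20 (SE 0.39, limma adjusted p = 0.362), and by 0.97 (SE 0.46) without WT 3 and WT 4. Hadh, a mitochondrial enzyme of fatty acid oxidation, was at 13.30, 13.30 and 13.24 in KO 5, KO 6 and KO 7, against 13.21, 13.07, 12.83 and 12.86 in WT 1 to 4. The groups did not overlap, though KO 7 and WT 1 were close. Its difference was 0.29 (SE 0.12, limma adjusted p = 0.362), and 0.14 (SE 0.11) without WT 3 and WT 4. Tat, tyrosine aminotransferase, differed by 0.07 (SE 0.16, adjusted p = 0.875), and by 0.10 without WT 3 and WT 4. After quantile normalization, and also without WT 3 and WT 4, 3 of 7 members were positive, where 60.8% and 58.5% of all genes were. The direction of this list thus depended on the scaling and on those samples.

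Of 5 measured ONECUT targets, 2 were positive in KO minus WT, the median was -0.04, and there were 0 at an unadjusted p under 0.05. Among all genes 68.4% were positive and 13.7% under that p, and so short a list can easily hold none of the latter. Pkhd1, the cilium gene of polycystic disease, differed by -0.20 (SE 0.13, limma adjusted p = 0.494), Neurog3, the factor of endocrine progenitors, by 0.17 (SE 0.13, adjusted p = 0.567) and Sox9, a progenitor and duct factor, by 0.18 (SE 0.19, adjusted p = 0.704). These differences were -0.06, 0.27 and -0.01 without WT 3 and WT 4, where 1 of 5 measured targets and 58.5% of all genes were positive.

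Among partner factors of the network, 7 of the 13 measured were positive in KO minus WT, the median was 0.05, and 1 had an unadjusted p under 0.05. The shares over all genes were 68.4% positive and 13.7% under that p, and so short a list can easily depart this far from them. The 1 gene was Nr2f1, a receptor that competes for HNF4 sites, at 5.11 ± 0.30 (SD, n = 3) in KO and 4.78 ± 0.08 (SD, n = 4) in WT islets, a difference of 0.33 (SE 0.14, limma adjusted p = 0.364) that was 0.26 (SE 0.17) without WT 3 and WT 4. Its probe set was dim, and KO 7 (4.77) lay below WT 1 and WT 2 (4.84 and 4.86), so the groups overlapped. Ppargc1a, a coactivator of HNF4A, ranged most widely, at 10.90, 10.08 and 10.58 in KO 5, KO 6 and KO 7, against 10.40, 9.78, 8.68 and 10.87 in WT 1 to 4. WT 3 was far below the others. It differed by 0.59 (SE 0.47, adjusted p = 0.591), and Gata6, a factor of pancreas formation, by 0.22 (SE 0.19, adjusted p = 0.621). These were 0.43 (SE 0.27) and -0.05 (SE 0.15) without WT 3 and WT 4. Without WT 3 and WT 4, 4 of 13 members were positive, against 58.5% of all genes.

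Of 10 measured MODY genes, Hnf4a among them, 7 had positive differences and 0 had an unadjusted p under 0.05, with a median of 0.07, close to the 0.08 over all genes. The positive share was likewise near the 68.4% of all genes, of which 13.7% were under that p. After quantile normalization 5 of 10 were positive, with each sample centred 6, and without WT 3 and WT 4 the count was 2. The all-gene shares were 60.8%, 63% and 58.5%, in the same order. Besides Hnf4a, the adaptor Appl1 differed by 0.28 (SE 0.14, limma adjusted p = 0.384), the insulin gene Ins2 by 0.22 (SE 0.12, adjusted p = 0.423) and the transcription factor Klf11 by -0.18 (SE 0.15, adjusted p = 0.606). The values were 0.12 (Appl1), 0.05 (Ins2) and -0.04 (Klf11) without WT 3 and WT 4.

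**Figure D4:**
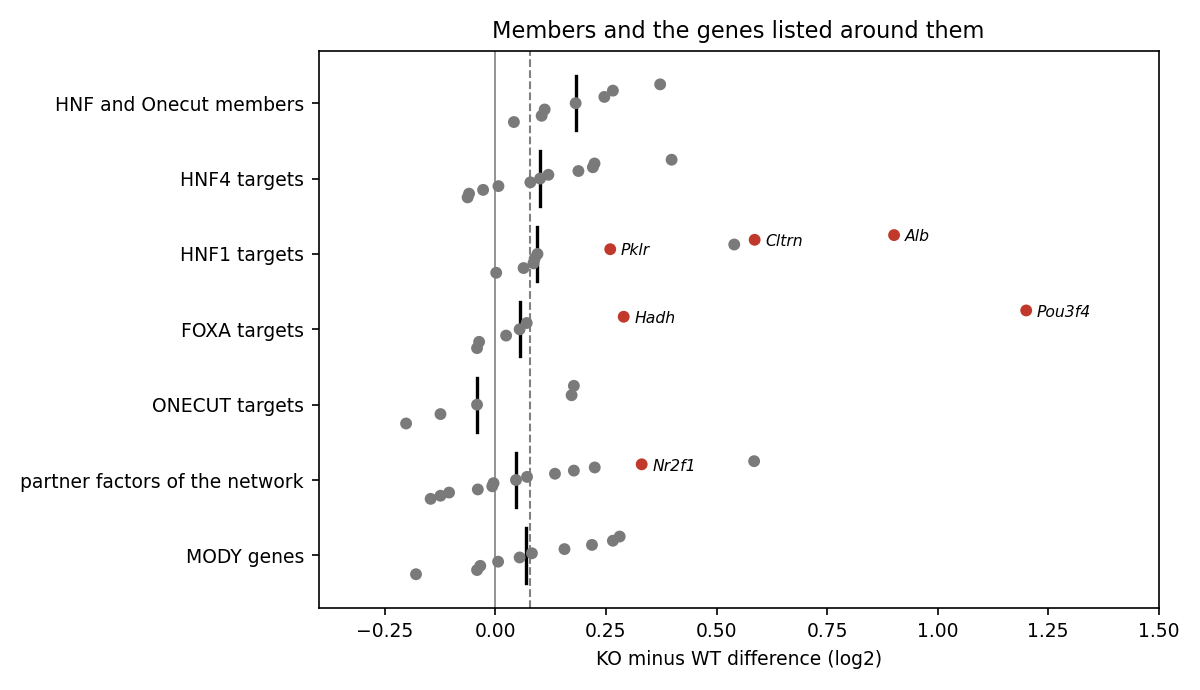
KO minus WT difference in log2 units for the 7 network genes and the measured genes of 6 lists around them, 1 point per gene, with black bars at the list medians, the dashed line at the median of all genes and red for an unadjusted p under 0.05. The red points are Alb, Cltrn and Pklr among HNF1 targets, Pou3f4 and Hadh among FOXA targets and Nr2f1 among partner factors, and none passed the adjusted threshold.

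For the 2 members with the widest range over the samples, Hnf4a and Foxa3, the 3 genes with the most similar profile were found by the root mean square distance over the 7 samples, after each gene was centred on its own mean. For Hnf4a these were Tinagl1 (distance 0.0816 log2 units), Slc35b4 (0.0978) and Slc2a1 (0.0990), a matrix protein, a nucleotide sugar transporter and a glucose transporter. For Foxa3, whose range was 0.82 log2 units, they were Stk16 (0.0320), Necap2 (0.0344) and Immt (0.0349), a kinase, an endocytosis factor and a mitochondrial inner membrane protein. All 6 genes were lowest in WT 3 and next lowest in WT 4, as Hnf4a and Foxa3 were. This follows from how they were chosen, by closeness over these same samples, and is no separate result.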

How the data were processed

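RNA of 7 islet samples was measured on Affymetrix arrays. Log2 values, 1 for each probe set on each array, were deposited by the authors. Per the submitters' processing notes, RMA was run in Affymetrix Expression Console. No header states the scale, which was inferred from the range of values. Software version, settings and genome build: not given in the sources used here. RMA gives no detection call, so dim probe sets keep values and their differences are compressed. The probe sets of Gcg, Ins2, Ttr and Hadh lay near the top of the scale, and whether they could still show a change in full was not tested.

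Of 23238 probe sets, 14939 had 1 gene symbol, 989 several and 7310 none in the platform annotation, giving 14807 genes, each by its brightest probe set. The KO against WT comparison used limma 3.58.1 under R 4.3.3 (eBayes, two-sided, no covariates or filter), and p-values were Benjamini-Hochberg adjusted across all genes, called at 0.05. Groups came from sample titles, and no batch is named. The fit was tested on simulated data. Named genes are the members, the 3 smallest p of each network list, the deleted genes, the brightest marker per cell type and the nearest profiles. Slc2a2 was added after its values were seen. Members and lists were chosen with earlier results of these data known, and motifs after the sequences were read. Promoter sequences are RefSeq's. Alternatives are given in the closing section.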

Additional observations from a re-analysis of the deposited data

How the results depend on the processing

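The number of members past the threshold stayed at 0 of those tested under all 16 alternatives. Over all genes the count past the threshold was 1, and it was 2 with array weights, 0 with an unmoderated test, with all probe sets as separate features and without both WT 3 and WT 4, and with single samples left out it ran from 0 (without WT 2, WT 4, KO 5, KO 6 or KO 7) to 1 (without WT 1 or WT 3). Leaving out genes dimmer than the median gene left 3 members and gave no value for Hnf4g, Foxa1, Onecut1 and Onecut2. Differences of Hnf4g, Foxa3, Onecut1 and Onecut2 kept a positive sign under every alternative run for them. The sign turned for Hnf4a (-0.174) and Foxa1 (-0.0259) without both WT 3 and WT 4, and for Foxa2 after quantile normalization (-0.0917). For Foxa3 the unadjusted p was 0.0523 with all samples, 0.0258 without WT 1 and 0.0296 without WT 2, with adjusted p values of 0.190 to 0.961 over its alternatives. Without both WT 3 and WT 4 the difference of changes was -0.634 for Hnf4a minus Hnf4g, -0.0587 for Foxa1 minus Foxa2 and 0.00817 for Onecut1 minus Onecut2, each of the other sign than with all samples, and after quantile normalization that of Hnf4a minus Hnf4g was -0.116. With single samples left out, differences ran from 0.0553 to 0.433 for Hnf4a, from -0.0320 (without KO 7) to 0.143 for Foxa2, from 0.147 to 0.383 for Hnf4g and from 0.259 to 0.458 for Foxa3. The difference of changes then ran from -0.201 to 0.244 for Hnf4a minus Hnf4g, from -0.111 to 0.314 for Foxa1 minus Foxa2 and from -0.149 to 0.0404 for Onecut1 minus Onecut2, so their signs were not stable. Beyond fewer samples or a changed scaling, the cause was not tested. No paired analysis was possible because the groups share no sample numbers. With 7 arrays, small changes could not be detected. The intervals are not adjusted over all genes, so they do not mark the smallest change that could be called. Alb, with a difference of 0.90 and an interval of 0.35 to 1.45, had a limma adjusted p of 0.362.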

Other observations

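The antisense transcript Hnf4aos, named here because it lies at the Hnf4a locus and outside the rule for named genes, was at 5.92, 5.91 and 5.60 in KO 5, KO 6 and KO 7, against 5.82, 6.12, 5.93 and 5.81 in WT 1 to 4. Its difference was -0.11 (SE 0.12, limma adjusted p = 0.730), and it lay within 0.52 log2 units over the samples where Hnf4a spanned 1.24. In contrast to Hnf4a, it was not lowest in WT 3 and WT 4 but in KO 7.

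Onecut3, the remaining ONECUT gene, was at 7.67, 7.55 and 7.12 in KO 5, KO 6 and KO 7, against 7.44, 7.42, 7.51 and 7.13 in WT 1 to 4. KO 5 and KO 6 lay above all WT samples and KO 7 below them, the pattern also seen for Foxa1. Its difference was 0.07 (SE 0.16, limma adjusted p = 0.875). Dpp4, an HNF1 target that encodes the peptidase degrading incretin hormones, was named after its values were seen: its difference was 0.54 (SE 0.29, limma adjusted p = 0.410) with all samples and 0.07 (SE 0.16, adjusted p = 0.996) without WT 3 and WT 4.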
